A study of Homo sapiens with 4 samples.

Results

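Open chromatin was examined around 10 genes that specify or maintain epithelial identity, namely GRHL2, ELF3, EHF, KLF5, OVOL1, OVOL2, ESRP1, TFAP2A, TFAP2C and GATA3. Members were chosen by name, and all 10 were found among the 20098 protein-coding genes of the annotation. For each gene, the peaks inside the gene or within 100 kb of its transcription start site (TSS) were listed in each library. Peaks from different libraries that shared 1 bp or more were joined into a region, which gave 77 regions near the 10 genes of 60886 regions in all. Regions touching the interval between 1000 bp before and 500 bp after the TSS were called promoter regions, and the others distal.

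ATAC-seq, in which a transposase inserts sequencing adapters into accessible DNA, had been performed on MCF10A cells, an immortalized and nontransformed human mammary epithelial line labelled parental, and on MCF10A cells transformed with H-RAS Gv12, an oncogenic HRAS with the G12V change and called G12V cells below. There were 2 libraries of each. Both cell types were grown in the same medium with EGF, insulin, hydrocortisone, cholera toxin and horse serum, for few passages. Per the study's methods, the oncogene and a GFP vector had been introduced by lentivirus, and hygromycin was then used to select the transduced cells. The G12V cells resumed growth some weeks after an initial arrest, so virus, selection and time in culture set them apart from the parental cells along with the oncogene, and these cannot be told apart here. The study calls its replicates biological, and the labels give no more on the cultures.

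Epithelial cells are held in their state by transcription factors that act together on the same enhancers. GRHL2, a grainyhead factor, binds and opens enhancers of junction genes and restrains ZEB1. ELF3 and EHF are ETS-family factors of epithelia, KLF5 is a Krüppel-like factor of basal and proliferating epithelial cells, and OVOL1 and OVOL2 are zinc-finger repressors that oppose mesenchymal genes. TFAP2A and TFAP2C (AP-2 alpha and AP-2 gamma) and GATA3 act in the mammary gland, GATA3 mainly in the luminal lineage. ESRP1 is not a transcription factor: it is an RNA-binding protein that sets the epithelial pattern of splicing. Loss of such programs is known from epithelial cells that take on mesenchymal traits, including after RAS activation.

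The lists differed much more between replicate numbers than between cell types. The MCF10A lists held 12902 and 34484 peaks, and the G12V lists held 14057 and 46698. A list holds only what passed the peak caller, so a region without a peak in a list may be closed there or may have missed the threshold at that depth. Each peak score, which depends on depth, was therefore used as its percentile within its own list. A percentile still depends on how many weaker peaks the list holds, and the G12V lists were the longer under both replicate numbers. As a check of the labelled cell type, 3 of 6 basal mammary markers had a promoter peak in some library (KRT17, LAMB3 and ITGB4), and these were 3 and 2 markers in the MCF10A libraries and 0 and 1 in the G12V libraries. Of all 20098 coding genes, 10668 had one in some library. By library the shares were 22.2% and 44.5% in MCF10A and 24.2% and 47.0% in G12V. ITGB4 had its promoter peak in both MCF10A libraries alone, KRT17 in the first MCF10A library alone, and LAMB3 in every library but the first G12V library. The whole windows of the basal markers went the other way. More peaks in G12V under both replicate numbers were found for 3 of the 6, beside 20.8% of coding genes. More in MCF10A under both was found for 0, beside 8.61%. A promoter peak was also seen for 1 of 4 luminal hormone-responsive markers (FOXA1), in every library but the first MCF10A library. KRT5, KRT14 and TP63, which define basal cells, had no promoter peak in any library at the canonical transcript start. Other starts of the markers were not examined. The promoters of all 4 blood, 2 muscle and 2 liver markers and of CDH5, the endothelial marker found in the annotation, had none either. As 46.9% of coding genes had a promoter peak in no library, these counts do not settle the cell type.

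Around the 10 genes, 1 region was gained and 3 were lost. Gained means that both G12V lists and neither MCF10A list had a peak, lost means the opposite, and shared means a peak in all 4 libraries. The gained region lay near GRHL2, and the lost regions lay near ELF3, ESRP1 and TFAP2C. Over all regions, 3.20% were gained and 2.14% were lost. By gene, 1 of the 10 had a gained region, where 16.0% of protein-coding genes did, and 3 of the 10 had a lost region, where 10% did. With 10 genes these shares rest on 1 and 3 genes and carry no test. With all lists cut to the length of the shortest, the GRHL2, ELF3 and ESRP1 calls were all lost and TFAP2C had 2 lost regions, and in the better-scoring 50% of each list the GRHL2 and ELF3 calls were lost. A further 10 regions were shared, where 8.36% of all regions were, 41 were seen in a single library (56.4% of all regions), and 9 were seen in the second library of both cell types and in neither first library (16.3%). The remaining 13 were 11 regions in 3 libraries and 2 regions with a peak in 1 library of each cell type under different replicate numbers.

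The sequences that follow are the 150 bp windows, on the plus strand of GRCh37, at the middle of the best-scoring peak of regions that carry the comparison and whose window held no annotated exon. They are shown because they are the lost regions of ELF3 and TFAP2C, the promoter region of TFAP2A, and regions of EHF and TFAP2A that had a peak in every library. Capitals mark matches to the motifs searched, which are given further on.
ELF3 lost region, chr1:202026067-202026216: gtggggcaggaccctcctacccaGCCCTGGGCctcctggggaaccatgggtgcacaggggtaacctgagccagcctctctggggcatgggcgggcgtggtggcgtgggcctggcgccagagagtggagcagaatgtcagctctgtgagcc
TFAP2C lost region, chr20:55181746-55181895: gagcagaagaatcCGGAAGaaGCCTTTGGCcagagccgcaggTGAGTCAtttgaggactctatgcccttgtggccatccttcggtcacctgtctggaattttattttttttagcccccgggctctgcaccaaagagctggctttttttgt
EHF shared intronic region, chr11:34676470-34676619: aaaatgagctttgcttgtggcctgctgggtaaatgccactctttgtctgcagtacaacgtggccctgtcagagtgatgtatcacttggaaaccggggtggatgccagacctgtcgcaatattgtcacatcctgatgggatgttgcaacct
TFAP2A promoter region, chr6:10415466-10415615: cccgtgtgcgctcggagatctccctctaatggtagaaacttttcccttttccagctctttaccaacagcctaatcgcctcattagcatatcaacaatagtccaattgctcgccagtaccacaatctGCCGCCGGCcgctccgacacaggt
TFAP2A shared region 36.4 kb upstream, chr6:10452223-10452372: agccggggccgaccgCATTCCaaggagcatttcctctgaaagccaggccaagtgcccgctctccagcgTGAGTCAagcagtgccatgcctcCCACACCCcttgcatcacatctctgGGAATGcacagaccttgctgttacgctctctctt
TFAP2A shared region 98.1 kb downstream, chr6:10316796-10316945: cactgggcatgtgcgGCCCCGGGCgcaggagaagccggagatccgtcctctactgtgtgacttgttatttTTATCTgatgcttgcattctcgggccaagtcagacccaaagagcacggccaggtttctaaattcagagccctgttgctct

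The lost region of ELF3 (chr1:202025757-202026525) lay between genes, 46.0 kb downstream of the TSS of ELF3, the nearest coding start. Its peak stood at the 97.1 percentile of the first MCF10A list and at the 34.5 percentile of the second, and no G12V list had a peak there. Its window held the TFAP2 pattern as the palindrome printed in capitals above. The lost region of TFAP2C (chr20:55181459-55182182), 22.2 kb upstream of its TSS, stood at the 43.5 and 70.5 percentiles of the MCF10A lists. Its window held TFAP2, ETS and AP-1 matches within the first 50 bases of the printed sequence. The lost region of ESRP1 (chr8:95704268-95704803) lay in an intron of ESRP1, 50.9 kb from the TSS, at the 68.9 and 60.7 percentiles, and its window matched ETS and AP-1. DPY19L4 was the coding gene whose start was nearest to it. The gained region of GRHL2 (chr8:102462406-102463074) lay between genes 41.6 kb upstream of the TSS. It stood at the 31.2 and 54.8 percentiles of the G12V lists, and its window matched GATA. The ELF3 peak of the first MCF10A library was among the strongest of its list, whereas the gained GRHL2 peak was in the lower part or near the middle of both lists.

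**Figure D1:**
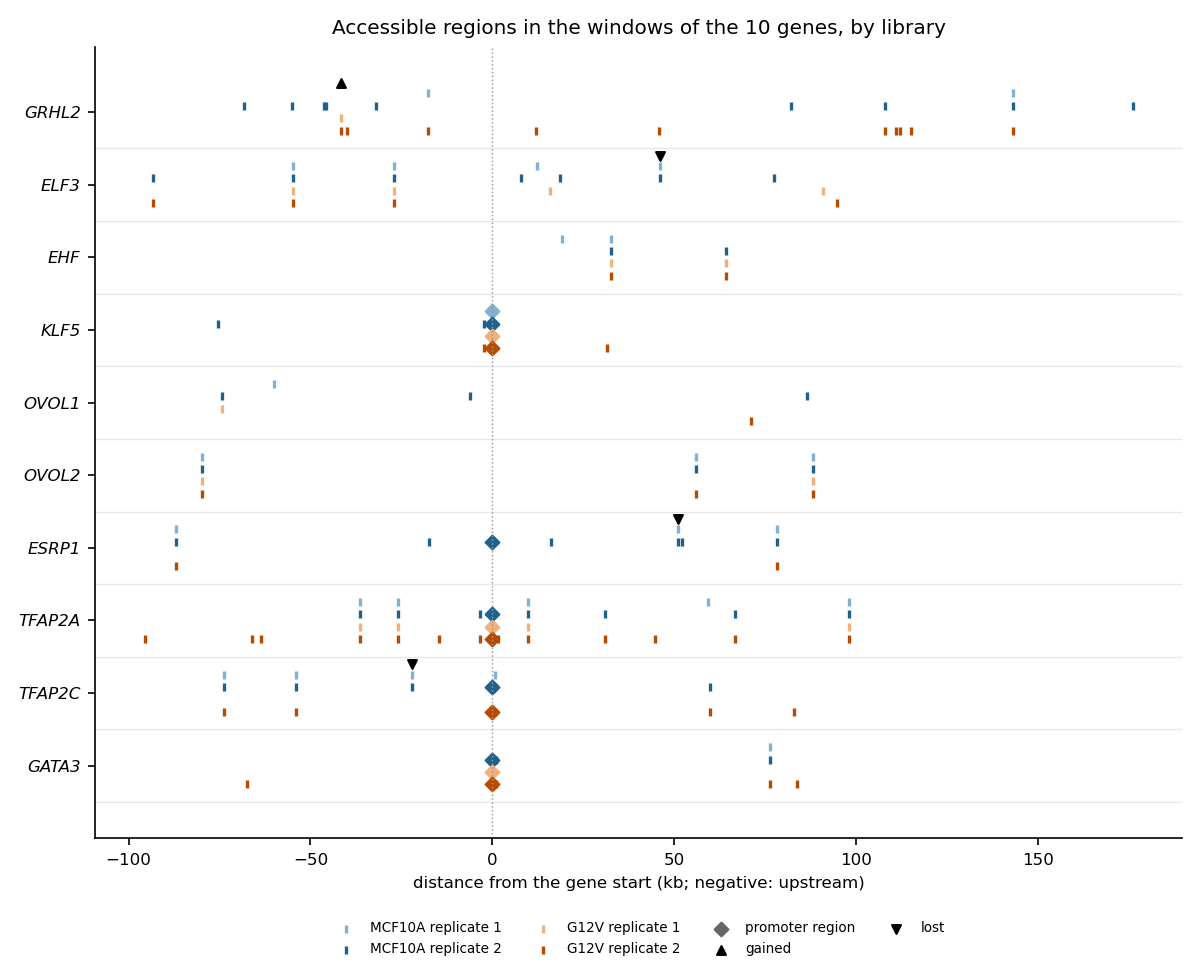
Regions near each of the 10 genes by distance from the gene start (x axis, kb, negative upstream), with 1 row of marks per library, diamonds for promoter regions and black triangles for gained (up) and lost (down) regions. Of the 77 regions 5 were promoter regions, and the 4 black triangles fall at GRHL2, ELF3, ESRP1 and TFAP2C.

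Promoters were examined next. With the canonical transcript start as TSS, KLF5 was the only member with a promoter peak in all 4 libraries, where 15.0% of coding genes had one. A TFAP2A region 9.67 kb downstream, described below, also had a peak in all 4 libraries. It overlapped the promoter interval of another annotated TFAP2A start. The promoters of 5 of the 10, namely GRHL2, ELF3, EHF, OVOL1 and OVOL2, had a peak in none, as did those of 46.9% of coding genes. Of the 10, 0 had a promoter peak in both G12V lists alone (0.886% of coding genes) and 0 in both MCF10A lists alone (0.512%). The number of members with a promoter peak was 1 and 5 in the MCF10A libraries and 3 and 4 in the G12V libraries, so the cell types overlapped, and the difference of the means was 0.5 genes against a pooled SD of 2.06 (n = 2 libraries per cell type). In the same libraries 22.2% and 44.5% and then 24.2% and 47.0% of all coding genes had a promoter peak.

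The KLF5 promoter region (chr13:73632557-73633795) reached from upstream of the TSS into the first coding exon. It stood at the 89.5 and 96.5 percentiles in MCF10A (93.0 ± 4.95, SD, n = 2) and at the 97.2 and 97.8 percentiles in G12V (97.5 ± 0.425). Both G12V values were above both MCF10A values, by 4.48 points on average, with p = 0.333 in the exact two-sided permutation test. That is the smallest p this design of 2 against 2 can give, so no such difference could pass 0.05. The GATA3 promoter region (chr10:8095216-8097191) had no peak in the first MCF10A library, stood at the 53.8 percentile in the second, and at the 73.1 and 97.6 percentiles in G12V. The TFAP2A promoter region (chr6:10414833-10416247) also lacked a peak in the first MCF10A library, and stood at the 79.5 percentile in the second and the 67.7 and 80.6 percentiles in G12V. The MCF10A value lay between the G12V values there. The TFAP2C promoter region (chr20:55203987-55204596) was seen only in the second libraries, at the 76.3 percentile in MCF10A and 44.2 in G12V. A separate TFAP2C region that began 645 bp downstream of the TSS, just outside the promoter limit, and reached a coding exon was seen in 3 libraries, at 13.3 and 90.5 in MCF10A and 85.9 in the second G12V library. The ESRP1 promoter region, which ended 3 bp upstream of the TSS (chr8:95652964-95653399), was seen in the second MCF10A library alone, at the 44.1 percentile.

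**Figure D2:**
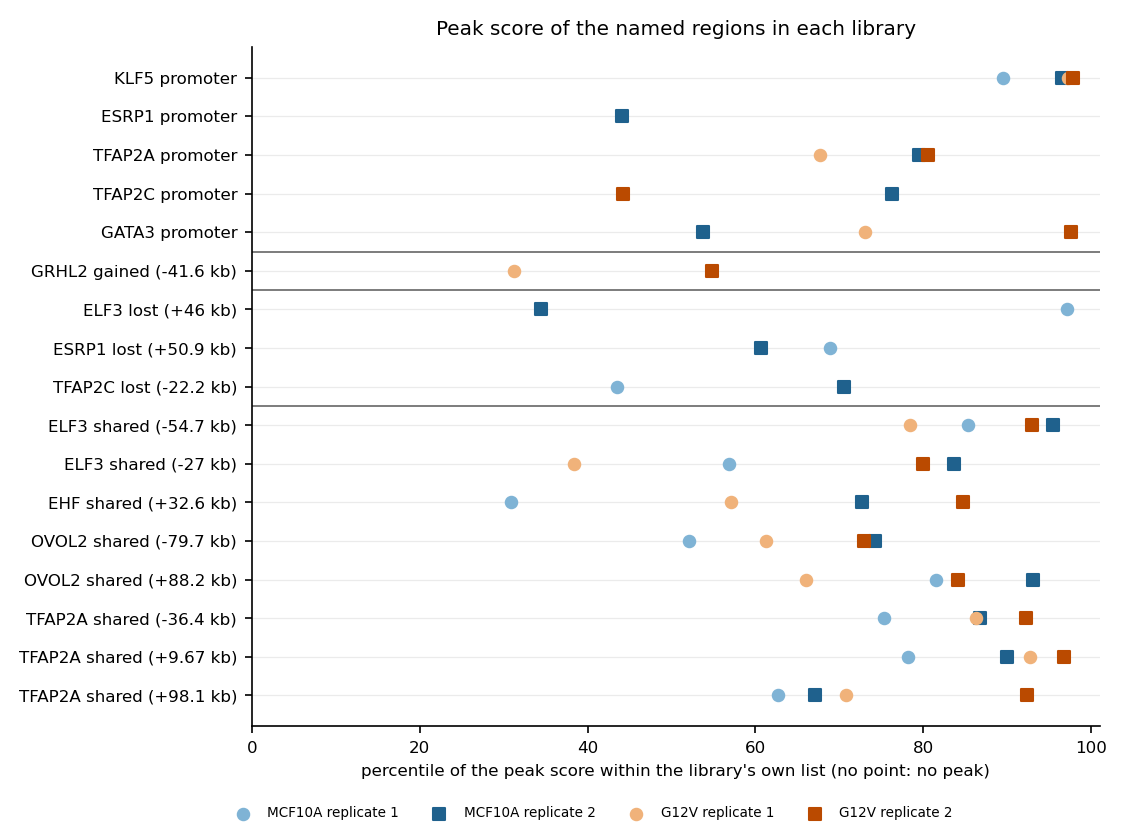
Percentile of the peak score within each library's own list (x axis) for the 5 promoter regions, the gained and lost regions and 8 shared distal regions (rows), with circles for first and squares for second libraries, blue for MCF10A and orange for G12V. The KLF5 promoter and the TFAP2A regions at +9.67 and +98.1 kb have both G12V points to the right of both MCF10A points.

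The 10 shared regions fell in the windows of 5 genes: 4 of TFAP2A, 2 each of ELF3 and OVOL2, and 1 each of EHF and KLF5. Of these, 4 were promoters of other genes. The ELF3 pair covered the promoters of TIMM17A, a mitochondrial import gene, and of RNPEP, an aminopeptidase gene. The OVOL2 pair covered the promoters of SNX5 and MGME1 and of KAT14 and PET117. At the SNX5 and MGME1 region the percentiles were 81.5 and 93.1 in MCF10A and 66.0 and 84.1 in G12V, and at the TIMM17A region they were 85.3 and 95.5 in MCF10A and 78.4 and 92.9 in G12V. At the RNPEP region they were 56.9 and 83.7 in MCF10A and 38.4 and 80.0 in G12V, and at the KAT14 and PET117 region 52.1 and 74.3 in MCF10A and 61.2 and 72.9 in G12V. The cell types overlapped in all 4 of these. Shared regions that were no promoter of another gene were thus seen for EHF, KLF5 and TFAP2A.

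TFAP2A had the most shared regions, and in 3 of its 4 both G12V percentiles were above both MCF10A percentiles. The region 9.67 kb downstream (chr6:10403868-10405633) overlapped a coding exon and the promoter interval of another annotated TFAP2A start. It stood at 78.2 and 90.0 in MCF10A and at 92.7 and 96.7 in G12V. The region 98.1 kb downstream (chr6:10316538-10317223), between genes, stood at 62.7 and 67.1 in MCF10A and at 70.8 and 92.3 in G12V. The differences of means were 10.6 points (84.1 ± 8.32 against 94.7 ± 2.77, SD, n = 2 each) and 16.7 points (64.9 ± 3.11 against 81.6 ± 15.2), each with an exact permutation p = 0.333. The TFAP2A region 36.4 kb upstream (chr6:10451660-10452934) stood at 75.3 and 86.8 in MCF10A and 86.3 and 92.2 in G12V, and overlapped. With the KLF5 promoter, 4 of the 10 shared regions had both G12V values above both MCF10A values and 0 had both below, where 18.5% and 6.90% of all 5090 shared regions did. The median difference over all shared regions was 2.85 points, with quartiles at -5.63 and 15.8, so the TFAP2A difference at +98.1 kb was beyond the upper quartile and the one at +9.67 kb was within the quartiles. The 4 TFAP2A regions lie at 1 locus and are not independent of each other. Their differences were not computed with lists of equal length.

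EHF had 1 shared region, in an intron 32.6 kb downstream of the TSS (chr11:34675233-34677599). It stood at 30.9 and 72.7 in MCF10A and at 57.1 and 84.7 in G12V, a difference of 19.0 points with overlapping values (exact permutation p = 0.667). The EHF window held 3 regions in all and 2 peaks in every library. A region 64.2 kb downstream was the only one of the 77 whose window matched the grainyhead pattern, and it had a peak in every library but the first MCF10A library.

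The number of peaks per gene was also compared. ESRP1 had 3 and 7 peaks in the MCF10A libraries and 0 and 2 in the G12V libraries. It was the only member with more peaks in MCF10A under both replicate numbers. At 1 of 10, this is near the 8.61% of coding genes with that pattern. Both peaks of the second G12V library lay in promoters of neighbouring genes, at VIRMA (95.8 percentile) and DPY19L4 (76.9 percentile), so no G12V list had a peak inside ESRP1 or at its promoter. The share of coding genes without a G12V peak in the gene or promoter was not counted. The MCF10A lists had 4 regions in the ESRP1 gene, of which the lost intronic region alone was in both. The others were seen in the second MCF10A library alone. GATA3 was the only member with more peaks in G12V under both numbers (1 and 3 in MCF10A, 2 and 5 in G12V), as 20.8% of coding genes had. TFAP2C had 5 and 6 peaks in MCF10A and 0 and 6 in G12V, so its difference lay wholly in the first libraries. TFAP2A had 6 and 8 peaks in MCF10A and 5 and 14 in G12V. ELF3 had 4 and 7 in MCF10A and 4 and 4 in G12V, and OVOL1 had 1 and 3 and then 1 and 1. KLF5 had 1 and 3 in each cell type, and OVOL2 had 4 and 3 in MCF10A and 2 and 4 in G12V.

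GRHL2 had the most regions, 17, and similar numbers of peaks in the cell types, with 2 and 9 in MCF10A and 1 and 10 in G12V. Few of these were at the same place. Of the 17 regions 13 were seen in a single library, and of the 17 with a peak in either second library 2 had a peak in both, 7 only in MCF10A and 8 only in G12V. That is 11.8% in both, beside 38.7% over all regions of the second libraries. The MCF10A peaks lay mostly upstream of the gene, with 5 of the 7 between 68.3 and 32.0 kb upstream of the TSS, whereas 5 of the 8 G12V peaks lay inside the gene. The highest of the 7 MCF10A percentiles was 51.7 and the highest of the 8 G12V percentiles was 63.9. The GRHL2 window had 1 region with a peak in at least 3 libraries, in an intron 143 kb downstream of the TSS, at 39.4 and 70.1 in MCF10A and 39.9 in the second G12V library.

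**Figure D3:**
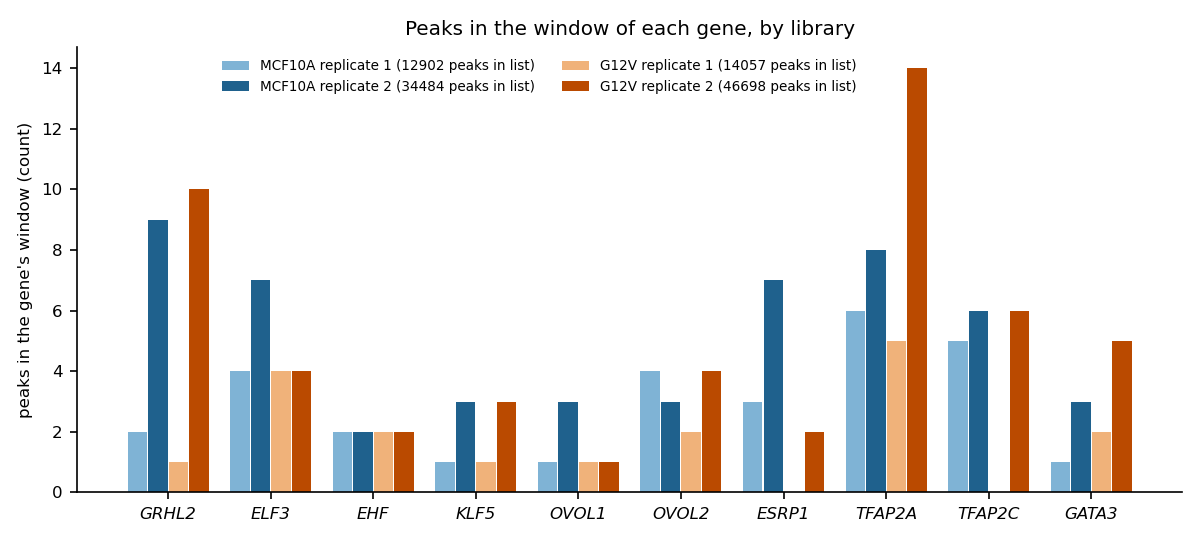
Number of peaks in the window of each gene (y axis) in each library, blue bars for MCF10A and orange for G12V. ESRP1 has 3 and 7 peaks in MCF10A and 0 and 2 in G12V, and EHF has 2 in every library.

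Over the 10 genes together, the windows held 29 and 51 peaks in MCF10A and 18 and 51 in G12V. Per 1000 peaks of the list these were 2.25 and 1.48 in MCF10A and 1.28 and 1.09 in G12V, a difference of -0.678, with both G12V values below both MCF10A values. All coding genes held 0.113 and 0.11 peaks per gene per 1000 peaks of the list in MCF10A and 0.112 and 0.0995 in G12V, while the 10 genes held 0.225 and 0.148 and then 0.128 and 0.109. List length moved with these values under both cell types, and with all lists cut to the length of the shortest the difference was -0.543. The 11 regions in 3 libraries lacked a peak in the first G12V library in 8 cases, or 10.4% of the 77 regions beside 5.22% of all regions, and in the first MCF10A library in 3 cases, or 3.90% beside 6.46%. Those 8 were 3 regions of TFAP2C, 2 of ESRP1 and 1 each of GRHL2, OVOL2 and GATA3.

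Motif matches were counted in the 150 bp window of every region, on both strands. The patterns were GCCNNNGGC for TFAP2, CGGAAG for ETS, CCNCACCC for KLF, AACNNGTT for grainyhead, AGATAA for the GATA family, CCGTTA for OVOL, TGANTCA for AP-1 and GGAATG for TEAD, with the p53 and CTCF patterns searched by name. None of these 8 letter patterns is contained in another. TFAP2 was matched in 13 of the 77 regions (16.9%, beside 8.04% of all regions), and ETS in 12 (15.6%, beside 4.88%). Both patterns are commoner in promoters, where 19.3% and 15.9% of all promoter regions had a match, against 5.77% and 2.68% of distal regions, and 5 of the 77 regions lay in a promoter of a member and 10 in one of another coding gene. Matches to both also lay outside promoters, as in the lost region of TFAP2C. Whether promoter content bears on the 2 shares was not tested. AP-1 was matched in 11 regions (14.3%, beside 20.6%), TEAD in 8 (10.4%, beside 11.0%), KLF in 7 (9.09%, beside 6.42%), CTCF in 6 (7.79%, beside 6.53%) and GATA in 5 (6.49%, beside 6.51%). Grainyhead, OVOL and p53 were each matched in 1 region (1.30%, beside 1.99%, 0.958% and 1.26% of all regions). TFAP2 matches included a region of each of the AP-2 genes themselves, at the TFAP2A promoter and in the lost TFAP2C region. A match is only a run of letters, and binding was not measured here.

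Other genes of the epithelial program were taken as a list of 10 regulators: GRHL1, GRHL3, ELF5, ESRP2, TP63, KLF4, FOXA1, SPDEF, TFAP2B and TRPS1. Of these 0 had a promoter peak in all 4 libraries and 4 had one in none, beside 15.0% and 46.9% of coding genes. A lost region was seen for 2 of the 10, ESRP2, the paralog of ESRP1, and KLF4, and a gained region for 0, beside 10% and 16.0% of coding genes. The ESRP2 region overlapped its promoter, at the 20.8 and 5.76 percentiles of the MCF10A lists, which places it among the weakest peaks. The KLF4 region, 99.4 kb downstream, stood at 78.6 and 84.4.

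Of 12 junction and target genes that the epithelial factors are known to maintain (CDH1, EPCAM, CLDN3, CLDN4, CLDN7, RAB25, ST14, SPINT1, SPINT2, MARVELD2, PRSS8 and CGN), 7 had a promoter peak in no library, CDH1, which encodes E-cadherin, among them. In the first libraries of both cell types 0 of the 12 had a promoter peak, and in the second libraries 5 in MCF10A and 3 in G12V did. Of all coding genes, 46.9% had a promoter peak in no library. The shares with one were 22.2% (MCF10A) and 24.2% (G12V) in the first libraries and 44.5% and 47.0% in the second. A gained region was seen for 1 (CLDN7) and a lost one for 2 (RAB25 and ST14), beside 16.0% and 10% of coding genes. The CLDN7 region, 44.5 kb upstream of the TSS of CLDN7, stood at 88.2 and 29.6 in the G12V lists. The RAB25 region, 45.1 kb downstream, stood at 4.05 and 27.3 in the MCF10A lists, in the lower part of both. Whether these distal regions overlap promoters of other genes is not given here. The ST14 region, 12.8 kb upstream of the gene for the protease matriptase, stood at 88.1 and 72.1 in MCF10A.

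Of 10 mesenchymal regulators (ZEB1, ZEB2, SNAI1, SNAI2, TWIST1, TWIST2, PRRX1, TCF4, FOXC2 and GSC), 0 had a lost region and 2 had a gained one, beside 10% and 16.0% of coding genes. The TCF4 region, 312 kb downstream of its TSS, stood at 2.31 and 66.7 in the G12V lists. The GSC region, 88.2 kb downstream, stood at 40.8 and 35.0. ZEB1, the repressor opposed by GRHL2, had 3 regions, all in the second MCF10A library alone, 1 of them at its promoter. SNAI2, which encodes SLUG and is active in basal mammary cells, had a promoter peak in every library but the first MCF10A library, as did TWIST2. So did KLF4, FOXA1 and TRPS1 of the other epithelial regulators, and the members TFAP2A and GATA3. The share of all coding genes with this pattern was not counted. Of the 10 genes, 0 and 5 had a promoter peak in the MCF10A libraries and 2 and 4 in the G12V libraries. The shares of all coding genes were 22.2% and 44.5% in MCF10A and 24.2% and 47.0% in G12V.

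**Figure D4:**
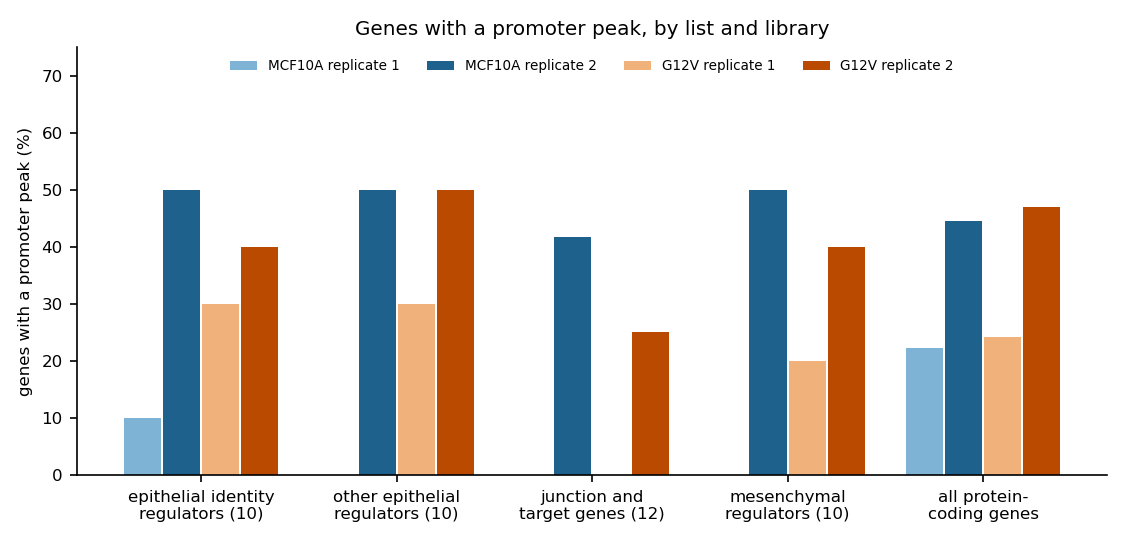
Share of genes with a promoter peak (y axis, %) in each library, for the 10 genes, the other lists and all protein-coding genes, with the number of genes in parentheses. The second libraries (darker bars) are above the first in every list, and the 10 genes have 1 and 5 of 10 in MCF10A and 3 and 4 of 10 in G12V.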

How the data were processed

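ATAC-seq peak lists of 2 MCF10A and 2 G12V libraries were used. Per the study's methods, the authors aligned reads to hg19 with bowtie (0.12.9), kept uniquely aligned reads, shifted read starts to the centre of the insertion and called peaks with MACS (1.4.2; tag size 51, no model, shift size 75, local window 25000 bp, p threshold 1e-04). The submitters' processing notes name Bowtie and hg19. The deposited score of each peak is the MACS score, 10 times the negative log10 of its p-value. Read counts were not used here, so depth is given as peaks per list.

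Only the 22 autosomes and X entered, and scores were turned into percentiles of their list. Genes came from GENCODE release 44 on GRCh37, with the canonical transcript start as TSS, where the study used RefSeq. Sequences were read from GRCh37, and none is printed for chromosome 8. PECAM1, one of the endothelial markers, was not matched in this annotation. Scripts used Python 3.11.15, pandas 2.3.3, numpy 2.4.6 and scipy 1.17.1, and were tested on simulated lists. The exact permutation test used the 4 library values.

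One gene of the other regulators and one TFAP2A region, by itself, are not reported here. The members and lists were chosen with earlier results of these data known. Text names all 10 members, all their promoter, gained and lost regions, and each member's best distal region with peaks in all 4 libraries; other shared regions, the 3-library and single-library patterns and genes of the other lists were described after their values were seen. Alternatives were another start, window, overlap, list filter, the replicate block and each library left out.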

Additional observations from a re-analysis of the deposited data

How the results depend on the processing

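The gained and lost counts near the 10 genes (1 and 3) stayed within 1.5 times with other gene starts, a 50 kb window, an overlap of 50% of the shorter peak and merging within 200 bp. They were 0 and 2 in the better-scoring 50% of each list, where the GRHL2 gained and ELF3 lost calls were gone and those of ESRP1 and TFAP2C stayed. With all lists cut to 12888 peaks, the size of the shortest, they were 1 and 5, but at other genes: the gained region was at GATA3, the lost ones were 2 at TFAP2C and 1 each at GRHL2, OVOL2 and GATA3, and the GRHL2 gained, ELF3 lost and ESRP1 lost calls were gone. Leaving out 1 library gave 1 to 19 gained regions (19 without the first G12V library) and 3 to 20 lost regions (20 without the first MCF10A library), because 1 peak then sufficed on that side. Within the first pair alone there were 9 gained and 18 lost regions, and within the second pair 20 and 21. Under a definition chosen after seeing the data, a peak in at least 1 library of one cell type and in 0 of the other, there were 21 gained and 24 lost regions.

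The difference in peaks per 1000 was negative under every alternative run for it, between -1.06 and -0.293 with 1 library omitted. All alternatives drew on the same 4 lists. Both second libraries held 51 peaks near the members, so the -0.387 of that pair came from the longer G12V list. The difference in members with a promoter peak, 0.5, changed sign to -0.5 with the 5' end of the gene record and with every coding transcript start, and to -1 in the second pair alone, and was -1.5 to 2.5 with 1 library omitted. The KLF5 difference was 0.978 to 7.98 points with 1 library omitted, and 4.38 points with all lists cut to the length of the shortest.

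The replicate numbers are not stated to mark a shared culture or day. Deviations of same-numbered libraries from their cell type's mean correlated at 0.13 over 5090 shared regions. In this balanced design a replicate block cannot change the counts (1 and 3) or the differences (-0.678 peaks per 1000, 0.5 members and 4.48 points). It was therefore no check of them. Under the block the exact permutation p of the KLF5 difference was 0.5, the smallest that 2 pairs allow.

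Searching the whole region instead of 150 bp raised the matches of every motif: grainyhead 6, TFAP2 27, ETS 19, KLF 27, GATA 28, OVOL 4, AP-1 32, TEAD 31, p53 10 and CTCF 15 of the 77 regions. Over all whole regions the shares were grainyhead 8.93%, TFAP2 25.2%, ETS 16.2%, KLF 23.4%, GATA 26.3%, OVOL 4.61%, AP-1 47.1% and TEAD 34.8%, and were not computed for p53 and CTCF.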
